A study of Mus musculus with 2 samples.

Results

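The 35 genes described here take up fatty acids, activate and burn them, store them in droplets and use ketone bodies. They were listed by function, with earlier results of these data known, from the 32285 genes of a single-nucleus RNA sequencing data set of mouse calf muscle, and all 35 are measured in it. By role they are 5 genes of uptake and binding, 2 of activation, 6 of the carnitine shuttle and its control, 11 of beta-oxidation, 4 of electron transfer and uncoupling, 4 of lipid droplets and 3 of ketone use.

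Gastrocnemius and plantaris muscles came from wild-type C57BL/6 mice aged 12 weeks, with no treatment named, and each muscle gave 1 library of 10x Chromium 3' tags counted as unique molecular identifiers (UMIs). The analysed nuclei numbered 7364 from gastrocnemius and 9147 from plantaris. The libraries held 19048595 and 29248275 UMIs before filtering, with medians of 2260 and 2714 UMIs per nucleus, and 17 barcode sequences occurred in both. With 1 library per muscle, the muscle, the animals and the library cannot be told apart, and the number of mice behind each library was not stated.

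Myonuclei, the nuclei of muscle fibres, were grouped by their most abundant adult myosin heavy chain transcript, read from 3 or more UMIs of Myh4, Myh1, Myh2 and Myh7. Myh4 encodes the myosin of fast glycolytic type 2B fibres, Myh1 that of type 2X, Myh2 that of the fast oxidative type 2A and Myh7 that of slow type 1 fibres. Gastrocnemius gave 4554 Myh4, 131 Myh1 and 174 Myh2 nuclei, and plantaris gave 4180, 764 and 568. Their median depths lay between 2539.5 and 3436.5 UMIs per nucleus. The 11 myonuclear markers, which named these clusters and include the 4 Myh genes, summed to between 60184 and 83949.9 CPM (UMIs of a gene per 1000000 UMIs of the group) in the 3 Myh groups, so they are no separate check of the label. The 8 vascular markers summed to between 6.02 and 13.8 CPM in the same groups. Some other lists summed to more there. The 6 pericyte markers stood at 254 to 434 CPM, the 7 mesenchymal markers at 56.2 to 72.2 and the 6 Schwann cell markers at 13.8 to 72.2. The other classes were named from clusters by their markers and are to be read as endothelial-like, mesenchymal-like and so on, and the endothelial cluster also held all 5 lymphatic markers, at 823 and 183 CPM together.

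Muscle fibres take up fatty acids released from lipoproteins or carried on albumin, tie them to coenzyme A, and pass them into mitochondria as acylcarnitines. Beta-oxidation then shortens them in cycles and hands electrons to the respiratory chain through the electron transfer flavoprotein. Ketone bodies made by the liver enter the same final pathway after conversion to acetyl-CoA, and oxidative fibres are known for using both fuels more than glycolytic fibres do. Transcripts in nuclei are partly unspliced and newly made, so their levels are not those of the whole fibre or of the protein.

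Many of these genes are textbook targets of nuclear receptors of the PPAR and ERR families, which bind DNA at the letters AGGTCA, alone or repeated. Promoter windows from RefSeq (GRCm38.p6), running from 250 bases before a gene's start to 50 after it, matched 28 of the 35 genes in 32 windows. AGGTCA on either strand lay in 9 of these 32 windows, 28.1%, against 16.3% of all 32851 windows of the same length. The longer ERR motif TCAAGGTCA lay in 0 of the 32 and in 0.423% of all windows, and the PPAR repeat, a pair of AGGTCA with 1 base between, in 0 and 0.0396%. Both longer motifs contain AGGTCA. The 8 genes with the short motif were Acacb, Acadm, Acadvl, Cd36, Cpt1a, Plin2, Plin5 and Ucp3. The windows of 4 genes are printed in lower case with the motif in capitals. They show 2 genes that were higher in Myh2 than in Myh4 nuclei (Cd36, chr5:17835847-17836146, minus strand, and Acadm, chr3:153944594-153944893, minus strand) and the 2 that were lower (Ucp3, chr7:100472741-100473040, plus strand, and Acsl3, chr1:78657575-78657874, plus strand).
Cd36: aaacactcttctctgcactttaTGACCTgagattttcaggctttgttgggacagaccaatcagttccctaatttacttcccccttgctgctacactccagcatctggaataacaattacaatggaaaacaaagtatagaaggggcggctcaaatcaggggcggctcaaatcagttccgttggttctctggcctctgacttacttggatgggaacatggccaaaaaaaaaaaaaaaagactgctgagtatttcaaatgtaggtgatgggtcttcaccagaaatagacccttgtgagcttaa
Acadm: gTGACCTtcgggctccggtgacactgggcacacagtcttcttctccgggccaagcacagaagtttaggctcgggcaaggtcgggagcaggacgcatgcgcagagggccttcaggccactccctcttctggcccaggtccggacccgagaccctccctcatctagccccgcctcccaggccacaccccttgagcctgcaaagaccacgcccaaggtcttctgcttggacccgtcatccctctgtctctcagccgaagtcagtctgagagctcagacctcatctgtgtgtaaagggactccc
Ucp3: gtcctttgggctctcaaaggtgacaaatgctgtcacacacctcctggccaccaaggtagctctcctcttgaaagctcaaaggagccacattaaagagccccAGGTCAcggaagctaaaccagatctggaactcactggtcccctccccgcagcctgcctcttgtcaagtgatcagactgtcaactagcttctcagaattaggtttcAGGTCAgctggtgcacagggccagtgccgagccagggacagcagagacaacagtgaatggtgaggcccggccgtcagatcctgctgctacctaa
Acsl3: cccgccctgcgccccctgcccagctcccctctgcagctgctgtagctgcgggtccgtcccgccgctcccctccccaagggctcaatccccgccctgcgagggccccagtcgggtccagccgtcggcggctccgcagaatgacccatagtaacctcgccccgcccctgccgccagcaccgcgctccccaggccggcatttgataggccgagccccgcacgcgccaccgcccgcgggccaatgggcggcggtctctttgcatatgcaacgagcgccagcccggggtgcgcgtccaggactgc
The Cd36 window belongs to a RefSeq start that lies inside the longer GENCODE span of the gene, not at its outer end. The match in Cd36 began at position -228 from that start and that in Acadm at -249, both written as the reverse complement. Ucp3 held 2 matches, at -149 and -44, and Acsl3 held none, so the letters were in 1 of the 2 lower genes as well as in some of the higher ones. The windows of Bdh1, which had the largest Myh2 over Myh4 ratio of the tested members, held no match and are not printed.

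Fatty acid and ketone use genes were mostly higher in nuclei with the myosins of more oxidative fibres. Of the 33 members with 30 or more UMIs over the 6 sums of nuclei (3 Myh groups in 2 libraries), 27 were higher in Myh2 than in Myh4 nuclei and 2 were lower, against 10.3% of all 12213 genes tested called higher and 8.97% called lower. Between Myh1 and Myh4 nuclei, 23 members were higher and 1 was lower, against 6.61% and 4.73% of all genes. The median fitted log2 ratio of the members was 1.56 for Myh2 over Myh4, beside -0.06 over all genes, and 1.15 for Myh1 over Myh4, beside -0.05. A gene is called when edgeR's quasi-likelihood test, with library as a block, gave an adjusted p under 0.05 over all genes.

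The test has 2 residual degrees of freedom per gene and borrows its spread from all genes. Its 2 libraries are different muscles, so this shared spread comes from the disagreement between the muscles over all genes. The SE and adjusted p of a gene need not reflect its own disagreement. For Myh2 over Myh4, Lpl had log2 ratios of 5.08 in gastrocnemius and 2.99 in plantaris, with an SE of 0.23. Fitted log2 ratios are given with their SE, and pairs of values are in the order gastrocnemius, then plantaris.

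**Figure D1:**
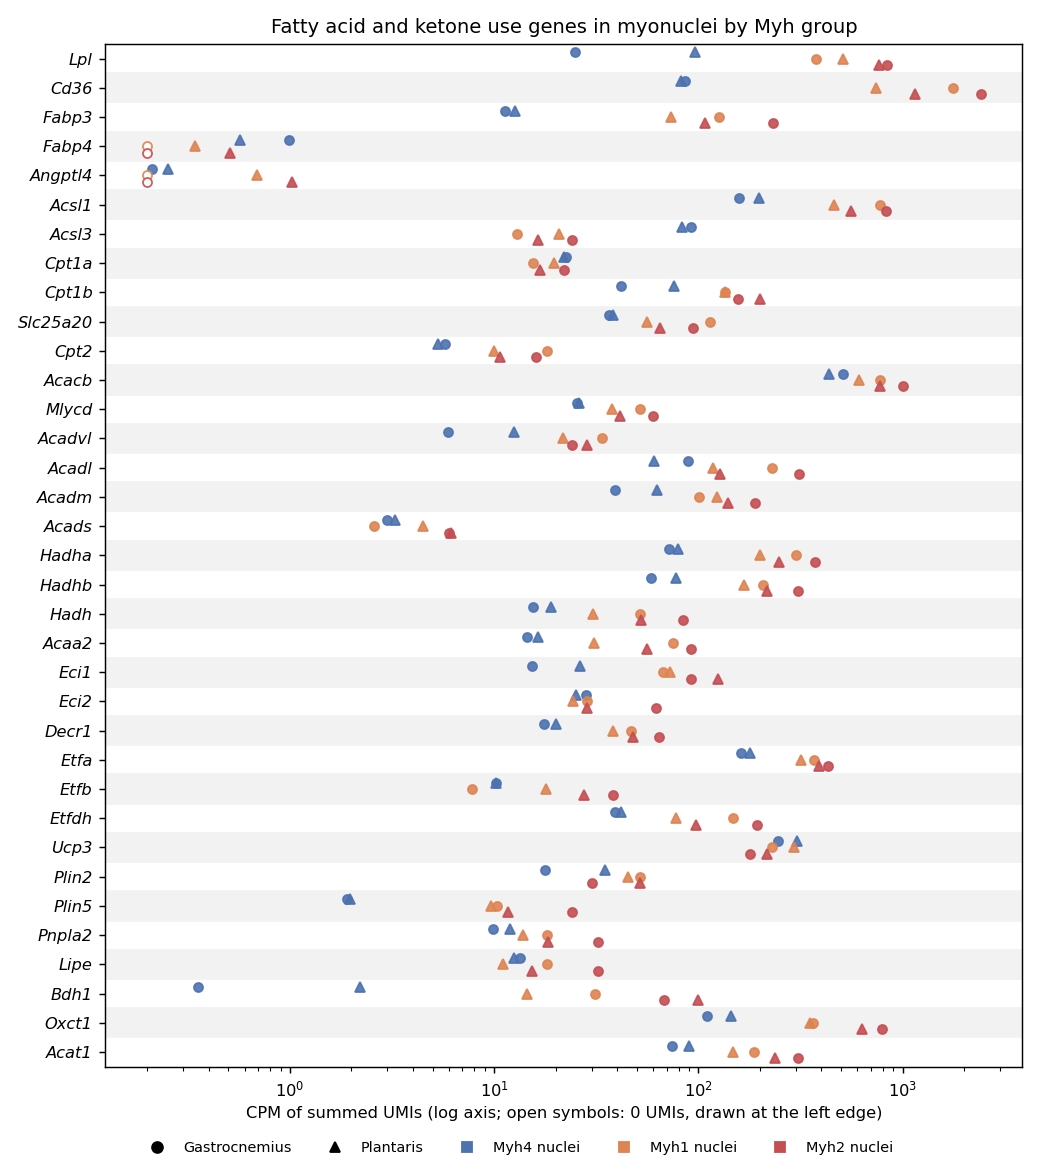
Level of each of the 35 genes, as CPM of UMIs summed over nuclei on a log axis, in Myh4 (blue), Myh1 (orange) and Myh2 (red) nuclei of gastrocnemius (circles) and plantaris (triangles). For 22 genes the order Myh4, Myh1, Myh2 rose in both libraries, and for Ucp3 it fell in both.

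Levels rose from Myh4 through Myh1 to Myh2 in both libraries for 22 of the 35 members, where 9.12% of all genes tested did so. The order fell in both libraries for 1 member, Ucp3, against 7.64% of genes. The plot of levels by Myh group shows that the blue Myh4 symbols stand apart to the left for most members, while Myh1 and Myh2 symbols often lie among each other.

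The uptake genes Cd36, Lpl and Fabp3 had among the largest ratios of the list. Cd36 (chr5:17781690-17888801 in GENCODE M21, mm10), a membrane protein that carries long-chain fatty acids into the fibre, stood at 85.9 and 81.9 CPM in Myh4 nuclei of gastrocnemius and plantaris, 1755 and 738 in Myh1 nuclei and 2414 and 1146 in Myh2 nuclei. Myh4 nuclei were far below the other groups in both libraries, and gastrocnemius held the higher values in Myh1 and Myh2 nuclei. The fitted log2 ratio of Cd36 was 4.22 ± 0.24 (SE, adjusted p = 9.58e-69) for Myh2 over Myh4, an 18.7-fold difference, and 3.74 ± 0.23 (SE, adjusted p = 2.85e-55) for Myh1 over Myh4.

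Lpl (chr8:68880491-68907448) encodes lipoprotein lipase, which fibres secrete and which frees fatty acids from lipoproteins at the capillary wall. Lpl stood at 24.8 and 96.2 CPM in Myh4 nuclei, 378 and 510.2 in Myh1 nuclei and 839 and 762 in Myh2 nuclei. The groups did not overlap, and Myh4 nuclei of plantaris lay well above those of gastrocnemius. The fitted ratio on the log2 scale was 3.90 ± 0.23 (SE, adjusted p = 4.82e-64) for Myh2 over Myh4 and 3.05 ± 0.22 (SE, adjusted p = 2.31e-41) for Myh1 over Myh4.

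Fabp3, the fatty acid binding protein of heart and muscle, stood at 11.3 and 12.7 CPM in Myh4, 127 and 73.4 in Myh1 and 233 and 108 in Myh2 nuclei. Fabp3 had a fitted log2 ratio of 3.63 ± 0.22 (SE, adjusted p = 1.29e-57) for Myh2 over Myh4 and 2.95 ± 0.23 (SE, adjusted p = 1.57e-36) for Myh1 over Myh4. Fabp4, the binding protein of adipocytes and capillaries, and Angptl4, a secreted inhibitor of Lpl, had too few UMIs to be tested. Fabp4 gave 14 and 9 UMIs in Myh4 nuclei, and 0 and 1 in Myh1 and 0 and 1 in Myh2 nuclei. Angptl4 gave 3 and 4 UMIs in Myh4, 0 and 2 in Myh1 and 0 and 2 in Myh2 nuclei. The counts of 0 in gastrocnemius allow up to 7.77 CPM in Myh1 and 6.02 CPM in Myh2 nuclei. Of the 6 adipocyte markers, 5 (Adipoq, Plin1, Cidec, Lep and Adrb3) were at 0 in Myh1 and Myh2 nuclei of both libraries, while Pparg was detected.

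**Figure D2:**
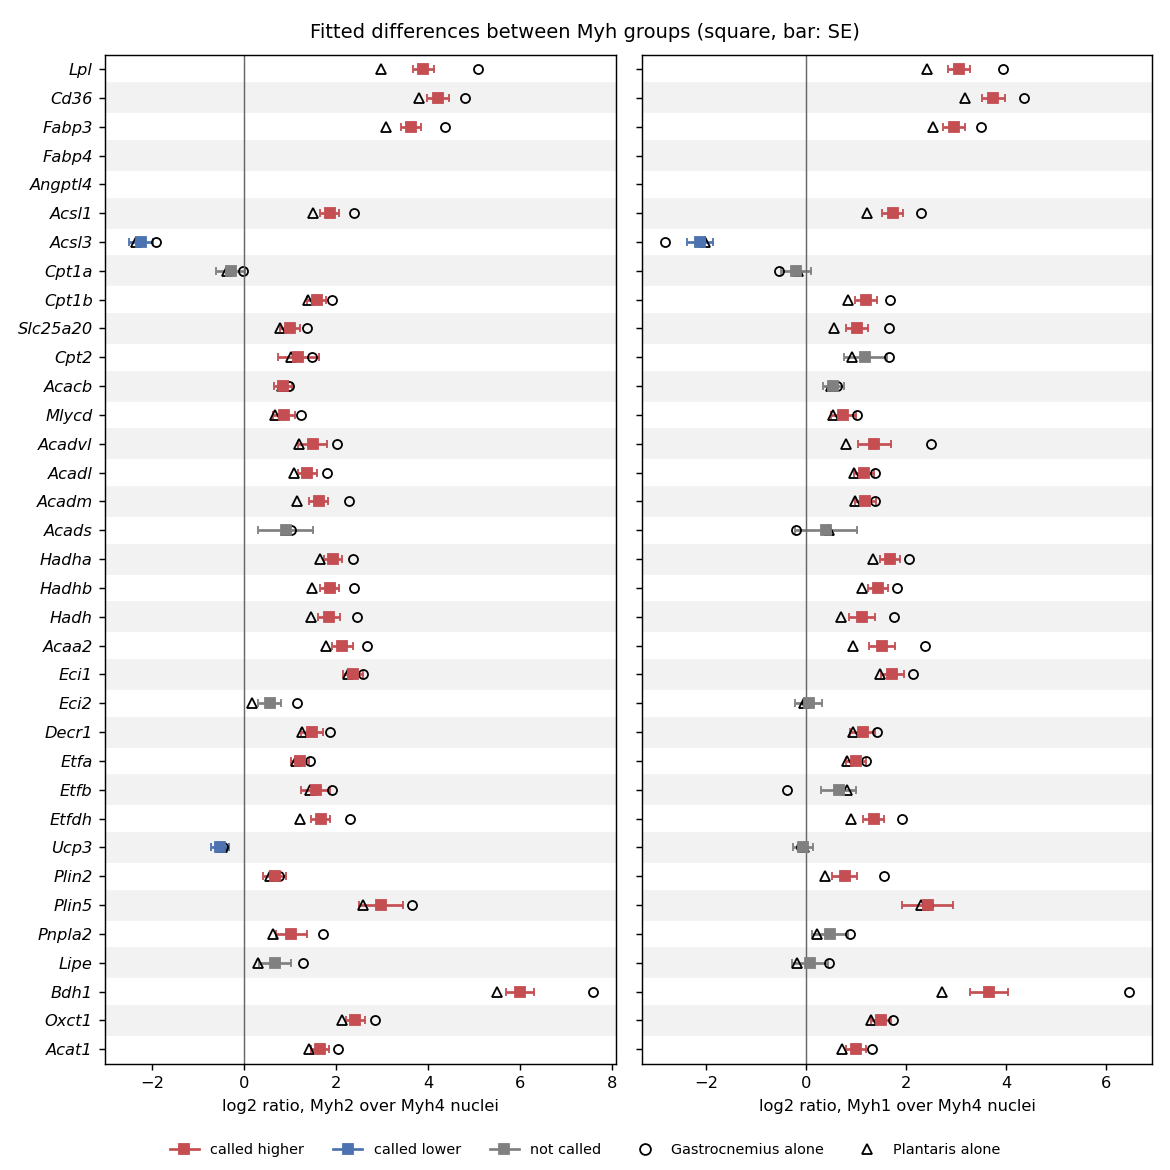
Fitted log2 ratio of each member (squares, with SE bars) for Myh2 over Myh4 nuclei and Myh1 over Myh4 nuclei, with the ratio within gastrocnemius (circles) and within plantaris (triangles). Red squares were called higher, blue lower and grey not called, and the circles of the members called higher lie to the right of their triangles.

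The 2 acyl-CoA synthetases, which activate fatty acids by joining them to coenzyme A, moved in opposite directions. Acsl1, the main synthetase feeding muscle mitochondria, stood at 158 and 198 CPM in Myh4, 772 and 461 in Myh1 and 833 and 557 in Myh2 nuclei. Acsl1 had a fitted log2 ratio of 1.86 ± 0.21 (SE, adjusted p = 8.63e-18) for Myh2 over Myh4 and 1.73 ± 0.21 (SE, adjusted p = 5.23e-15) for Myh1 over Myh4. Acsl3, a synthetase of the endoplasmic reticulum and lipid droplets, stood at 91.7 and 83.6 CPM in Myh4, 12.9 and 20.7 in Myh1 and 24.1 and 16.4 in Myh2 nuclei. Myh4 nuclei were the high group in both libraries, and the other groups overlapped. Acsl3 had fitted log2 ratios of -2.25 ± 0.27 (SE, adjusted p = 1.13e-15) for Myh2 over Myh4 and -2.13 ± 0.26 (SE, adjusted p = 1.50e-14) for Myh1 over Myh4. Acsl3 (chr1:78657825-78707743) overlaps Utp14b on the same strand, so reads of the shared part cannot be assigned to one of the pair with certainty. Acadvl, Bdh1, Eci2, Etfdh, Fabp3, Hadha, Lipe, Oxct1 and Ucp3 overlap genes on the opposite strand, and the strand setting of the counting was not stated.

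Of the 6 genes of the carnitine shuttle and its control, 5 were higher in Myh2 than in Myh4 nuclei and 3 were higher in Myh1 nuclei. Cpt1b, the muscle form of the enzyme that makes acylcarnitines, stood at 41.9 and 76 CPM in Myh4, 135 and 135 in Myh1 and 156 and 199.8 in Myh2 nuclei. Its fitted log2 ratio was 1.58 ± 0.21 (SE, adjusted p = 5.45e-13) for Myh2 over Myh4 and 1.19 ± 0.21 (SE, adjusted p = 5.67e-07) for Myh1 over Myh4. Cpt1a, the form known from liver, had a fitted log2 ratio of -0.30 ± 0.31 (SE, adjusted p = 0.623) for Myh2 over Myh4, which did not pass the test, with 22.5 and 22 CPM in Myh4 and 22.1 and 16.9 in Myh2 nuclei.

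Slc25a20, the carrier that exchanges acylcarnitine for carnitine, stood at 36.3 and 38.1 CPM in Myh4, 114 and 55.8 in Myh1 and 94.3 and 64.9 in Myh2 nuclei, with fitted log2 ratios of 1.0 ± 0.22 (SE, adjusted p = 5.19e-05) and 1.02 ± 0.22 (SE, adjusted p = 8.12e-05) against Myh4. Cpt2, which turns acylcarnitines back into acyl-CoA, stood at 5.74 and 5.31 CPM in Myh4, 18.1 and 9.99 in Myh1 and 16.1 and 10.7 in Myh2 nuclei. Its ratio of 1.18 ± 0.44 (SE, adjusted p = 0.0407) for Myh2 over Myh4 was called, and the ratio of 1.18 ± 0.43 (SE, adjusted p = 0.0558) for Myh1 over Myh4 was not.

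Acacb makes malonyl-CoA, the inhibitor of the first shuttle step, and Mlycd removes it. Both were higher in Myh2 than in Myh4 nuclei, at fitted log2 ratios of 0.84 ± 0.20 (SE, adjusted p = 3.82e-04) for Acacb and 0.87 ± 0.24 (SE, adjusted p = 0.00272) for Mlycd. Against Myh4, Myh1 nuclei had a ratio of 0.54 ± 0.20 (SE, adjusted p = 0.0653) for Acacb, which was not called, and 0.74 ± 0.25 (SE, adjusted p = 0.0256) for Mlycd, which was.

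Of the 11 beta-oxidation genes, 9 were higher in Myh2 and in Myh1 than in Myh4 nuclei, and their median fitted log2 ratios were 1.62 and 1.18. The acyl-CoA dehydrogenases take the first step, each for its own chain length. Acadm, the medium-chain enzyme, stood at 38.9 and 62.6 CPM in Myh4, 101 and 123 in Myh1 and 189 and 139 in Myh2 nuclei, with fitted log2 ratios of 1.62 ± 0.21 (SE, adjusted p = 1.84e-13) for Myh2 and 1.18 ± 0.21 (SE, adjusted p = 7.57e-07) for Myh1. Acadl, the long-chain enzyme, stood at 89.5 and 60.5 CPM in Myh4, 230.4 and 118 in Myh1 and 311 and 128 in Myh2 nuclei, with ratios of 1.37 ± 0.20 (SE, adjusted p = 2.99e-10) and 1.15 ± 0.20 (SE, adjusted p = 5.19e-07). The Myh4 levels of Acadl and Acadm were below those of both other groups in each library. Acadvl, the very-long-chain enzyme, stood at 5.95 and 12.5 CPM in Myh4, 33.7 and 21.7 in Myh1 and 24.1 and 28.6 in Myh2 nuclei, with ratios of 1.49 ± 0.32 (SE, adjusted p = 4.81e-05) and 1.36 ± 0.33 (SE, adjusted p = 6.30e-04). Acads, the short-chain enzyme, was sparse, with 1 and 13 UMIs in Myh1 and 3 and 12 in Myh2 nuclei, and was not called at a ratio of 0.90 ± 0.60 (SE, adjusted p = 0.342) for Myh2 over Myh4.

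Hadha and Hadhb encode the alpha and beta subunits of the trifunctional protein, which carries out the later steps on long chains. They lie next to each other in opposite directions on chromosome 5 (chr5:30118304-30155162 and chr5:30155248-30184593). Hadha stood at 72 and 79.2 CPM in Myh4, 300.3 and 199 in Myh1 and 371 and 248 in Myh2 nuclei, and Hadhb at 58.9 and 77.4 in Myh4, 207 and 167 in Myh1 and 309 and 217 in Myh2 nuclei. Both rose in step with the Myh groups in each library. The fitted log2 ratios for Myh2 over Myh4 were 1.93 ± 0.20 (SE, adjusted p = 1.25e-19) for Hadha and 1.86 ± 0.20 (SE, adjusted p = 4.13e-18) for Hadhb, and for Myh1 over Myh4 1.67 ± 0.21 (SE, adjusted p = 2.73e-14) and 1.43 ± 0.21 (SE, adjusted p = 2.00e-10).

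Hadh, the dehydrogenase of the shorter chains, stood at 15.4 and 18.9 CPM in Myh4, 51.8 and 30.7 in Myh1 and 84.3 and 52.1 in Myh2 nuclei, with fitted log2 ratios of 1.85 ± 0.24 (SE, adjusted p = 3.87e-13) and 1.11 ± 0.26 (SE, adjusted p = 3.12e-04) against Myh4. Acaa2, the thiolase that releases acetyl-CoA, stood at 14.5 and 16.3 CPM in Myh4, 75.1 and 31 in Myh1 and 92.3 and 56.2 in Myh2 nuclei, with ratios of 2.14 ± 0.24 (SE, adjusted p = 5.68e-18) and 1.51 ± 0.25 (SE, adjusted p = 5.72e-08).

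Unsaturated fatty acids need further enzymes that move or reduce double bonds. Eci1, an isomerase, stood at 15.4 and 26.2 CPM in Myh4, 67.3 and 72.7 in Myh1 and 92.3 and 125 in Myh2 nuclei, with fitted log2 ratios of 2.36 ± 0.22 (SE, adjusted p = 4.65e-25) and 1.72 ± 0.23 (SE, adjusted p = 5.86e-12). Decr1, the dienoyl-CoA reductase, stood at 17.5 and 20.1 CPM in Myh4, 46.6 and 38.2 in Myh1 and 64.2 and 48 in Myh2 nuclei, with ratios of 1.48 ± 0.24 (SE, adjusted p = 3.14e-08) and 1.13 ± 0.25 (SE, adjusted p = 1.63e-04). Eci2, a second isomerase, was not called, at 0.55 ± 0.25 (SE, adjusted p = 0.123) for Myh2 over Myh4. Its levels were 28.1 and 25.3 CPM in Myh4 and 62.2 and 28.6 in Myh2 nuclei, so the difference lay in gastrocnemius and the plantaris values were close.

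The 3 electron transfer genes were higher and the uncoupling protein was lower in Myh2 than in Myh4 nuclei. Etfa and Etfb encode the subunits of the electron transfer flavoprotein, and Etfdh the oxidoreductase that passes its electrons to ubiquinone. Etfa stood at 161 and 179 CPM in Myh4, 370.2 and 317 in Myh1 and 431 and 389 in Myh2 nuclei, with fitted log2 ratios of 1.21 ± 0.20 (SE, adjusted p = 3.50e-08) and 1.0 ± 0.20 (SE, adjusted p = 1.91e-05). Etfdh stood at 39.1 and 41.6 CPM in Myh4, 148 and 77.5 in Myh1 and 193 and 97.1 in Myh2 nuclei, with ratios of 1.67 ± 0.21 (SE, adjusted p = 3.80e-14) and 1.35 ± 0.21 (SE, adjusted p = 8.67e-09). Both rose through the Myh groups in each library. Etfb stood at 10.2 and 10.2 CPM in Myh4, 7.77 and 17.9 in Myh1 and 38.1 and 27.6 in Myh2 nuclei, with a called ratio of 1.56 ± 0.32 (SE, adjusted p = 1.30e-05) for Myh2 over Myh4 and one of 0.65 ± 0.35 (SE, adjusted p = 0.288) for Myh1 over Myh4 that was not called.

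Ucp3 (chr7:100472990-100486432), a mitochondrial carrier linked to fatty acid use in muscle, went the other way. Its levels were 247 and 303 CPM in Myh4, 230.4 and 293 in Myh1 and 179 and 217 in Myh2 nuclei, and Myh2 nuclei were the lowest in each library. The fitted log2 ratio of -0.53 ± 0.20 (SE, adjusted p = 0.0495) for Myh2 over Myh4 was just past the threshold, and that of -0.07 ± 0.20 (SE, adjusted p = 0.928) for Myh1 over Myh4 was not called.

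Of the 4 lipid droplet genes, 3 were higher in Myh2 than in Myh4 nuclei and 2 were higher in Myh1. Plin5, a droplet coat protein of oxidative tissues that ties droplets to mitochondria, gave 27 and 31 UMIs in Myh4, 4 and 28 in Myh1 and 12 and 23 in Myh2 nuclei. These are 1.91 and 1.96 CPM in Myh4, 10.4 and 9.65 in Myh1 and 24.1 and 11.8 in Myh2 nuclei. Plin5 had a fitted log2 ratio of 2.98 ± 0.49 (SE, adjusted p = 1.70e-08) for Myh2 over Myh4 and 2.43 ± 0.51 (SE, adjusted p = 4.04e-05) for Myh1 over Myh4. The ratio rests on few UMIs. Pnpla2, the lipase that starts triglyceride breakdown, stood at 9.85 and 12 CPM in Myh4, 18.1 and 13.8 in Myh1 and 32.1 and 18.4 in Myh2 nuclei, with a called ratio of 1.02 ± 0.34 (SE, adjusted p = 0.0167) for Myh2 over Myh4. Plin2, the widespread droplet coat protein, had ratios of 0.67 ± 0.25 (SE, adjusted p = 0.0388) for Myh2 and 0.77 ± 0.25 (SE, adjusted p = 0.0214) for Myh1 over Myh4. Lipe, the hormone-sensitive lipase, was not called, at 0.67 ± 0.34 (SE, adjusted p = 0.177) for Myh2 over Myh4.

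All 3 ketone use genes were higher in Myh2 and in Myh1 than in Myh4 nuclei. Bdh1 (chr16:31422280-31458901), the mitochondrial dehydrogenase that turns beta-hydroxybutyrate into acetoacetate, had the largest Myh2 over Myh4 ratio of the tested members. Its UMIs numbered 5 and 35 in Myh4, 12 and 42 in Myh1 and 34 and 196 in Myh2 nuclei. These are 0.354 and 2.21 CPM in Myh4, 31.1 and 14.5 in Myh1 and 68.2 and 100.1 in Myh2 nuclei. Bdh1 was nearly silent in Myh4 nuclei of gastrocnemius and the groups did not overlap. Its fitted log2 ratio was 6.01 ± 0.31 (SE, adjusted p = 2.34e-81) for Myh2 over Myh4, a 64.2-fold difference, and 3.65 ± 0.38 (SE, adjusted p = 3.37e-20) for Myh1 over Myh4. The libraries differed in its size, with log2 ratios of 7.59 and 5.50 for Myh2 over Myh4.

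Oxct1 (chr15:4026383-4155344), the transferase that commits acetoacetate to oxidation, stood at 110.2 and 145 CPM in Myh4, 365 and 354 in Myh1 and 795 and 631 in Myh2 nuclei. Its fitted log2 ratio was 2.42 ± 0.21 (SE, adjusted p = 2.79e-29) for Myh2 over Myh4 and 1.5 ± 0.21 (SE, adjusted p = 2.29e-11) for Myh1 over Myh4. Acat1, the mitochondrial thiolase that makes acetyl-CoA from acetoacetyl-CoA, stood at 74.6 and 89.6 CPM in Myh4, 186 and 147 in Myh1 and 307 and 238 in Myh2 nuclei, with ratios of 1.65 ± 0.20 (SE, adjusted p = 1.12e-14) and 0.99 ± 0.21 (SE, adjusted p = 3.54e-05). In the few Myh7 nuclei, 22 in gastrocnemius and 6 in plantaris, Oxct1 gave 72 and 22 UMIs, or 1074 and 1020.1 CPM. Acat1 gave 15 and 4 UMIs there, or 224 and 185 CPM, below its Myh2 levels. Bdh1 gave 1 and 0 UMIs, where the count of 0 allows up to 139 CPM.

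The difference from Myh4 nuclei was larger in gastrocnemius for each member called higher. The log2 ratio of Myh2 over Myh4 was larger there than in plantaris for 27 of 27 members, beside 78.6% of the 1257 genes called higher, and for Myh1 over Myh4 for 23 of 23, beside 80.2% of 807. Some calls did not hold under other settings. With DESeq2 in place of edgeR, Cpt2, Mlycd, Plin2, Pnpla2 and Ucp3 were no longer called for Myh2 against Myh4, nor Mlycd and Plin2 for Myh1 against Myh4. When nuclei were thinned to 1000 UMIs, the Etfb ratio for Myh2 over Myh4 fell from 1.56 to 0.54 and was no longer called. Thinning also ended the calls of Cpt2, Mlycd and Pnpla2 for Myh2 and of Slc25a20, Mlycd, Decr1 and Plin2 for Myh1 against Myh4. Without the library block, Slc25a20, Acacb and Acadl were also lost for Myh2 against Myh4, as were Slc25a20, Mlycd, Acadvl, Acadl, Hadh, Acaa2, Etfdh and Plin2 for Myh1 against Myh4. The call of Plin5 for Myh1 against Myh4 was lost with the stricter pure Myh groups.

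Myh2 and Myh1 nuclei differed less. Of 33 members, edgeR called 3 higher in Myh2 nuclei, against 1.12% of all genes, and 0 lower, against 1.47%. At an unadjusted p under 0.05 edgeR had 12 members higher and 1 lower, beside 483 and 593 of all 12213 genes. DESeq2 called 2 members higher and 0 lower, beside 58 and 46 of all genes. The 3 were Bdh1 at 2.35 ± 0.32 (SE, adjusted p = 4.97e-11), Oxct1 at 0.92 ± 0.21 (SE, adjusted p = 6.87e-04) and Lpl at 0.85 ± 0.21 (SE, adjusted p = 0.00319), so 2 of the 3 ketone use genes were among them. Cd36 at 0.48 ± 0.21 (SE, adjusted p = 0.356) and Acsl1 at 0.13 ± 0.20 (SE, adjusted p = 0.979) were not called. The median ratio of the members was 0.42. Without the library block edgeR called 0 members, beside 11 of all genes, with 4 members at an unadjusted p under 0.05, beside 643 of all genes. Scaling by totals alone gave 6 members, beside 350 of all genes. Lpl was not called by DESeq2 or with a minimum of 100 UMIs, and Bdh1 was among the leading genes of the cluster that holds most Myh2 nuclei.

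Nuclei with 2 myosins were described without a test. A nucleus with 10 or more Myh UMIs was called pure when 80% or more came from 1 gene, and mixed when each of a pair gave 20% or more. These classes ran from pure Myh4 (3202 and 2908 nuclei) through Myh4 with Myh1 (25 and 181), pure Myh1 (70 and 379) and Myh1 with Myh2 (29 and 237) to pure Myh2 (69 and 175). Myonuclear markers also occurred in nuclei of other classes, with values given below, and the part of such free RNA and of doublets in the mixed classes was not tested.

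Cd36 stood at 69.7 and 66.2 CPM in pure Myh4 nuclei, 1188 and 286 in Myh4 with Myh1, 1763 and 834 in pure Myh1, 2009 and 1114 in Myh1 with Myh2 and 2643 and 1196 in pure Myh2 nuclei. Its level in nuclei mixed for Myh4 and Myh1 lay between those of the pure classes in both libraries, nearer the Myh1 class in gastrocnemius. Lpl rose likewise, from 18.8 and 85 CPM through 209.7 and 241, 363 and 540.5 and 802 and 702 to 877 and 801. In both libraries Bdh1 rose up to the class of Myh1 with Myh2 and was lower in pure Myh2 nuclei. Its gastrocnemius values rest on few UMIs, with 5, 12 and 34 over all Myh4, Myh1 and Myh2 nuclei of that library. Bdh1 stood at 0.173 and 1.06 CPM in pure Myh4, 9.99 and 3.28 in Myh4 with Myh1 and 26.6 and 6.37 in pure Myh1 nuclei, and at 69.3 and 107 and 61.8 and 88.5 in the classes with Myh2. In plantaris its step lay between pure Myh1 nuclei, with 10 UMIs, and nuclei that hold Myh2 beside Myh1, with 100 UMIs. Acsl3 was high in pure Myh4 nuclei, at 95.3 and 88.3 CPM, and stood at 9.99 and 29.5 already in nuclei with Myh4 and Myh1, on 1 and 27 UMIs.

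**Figure D3:**
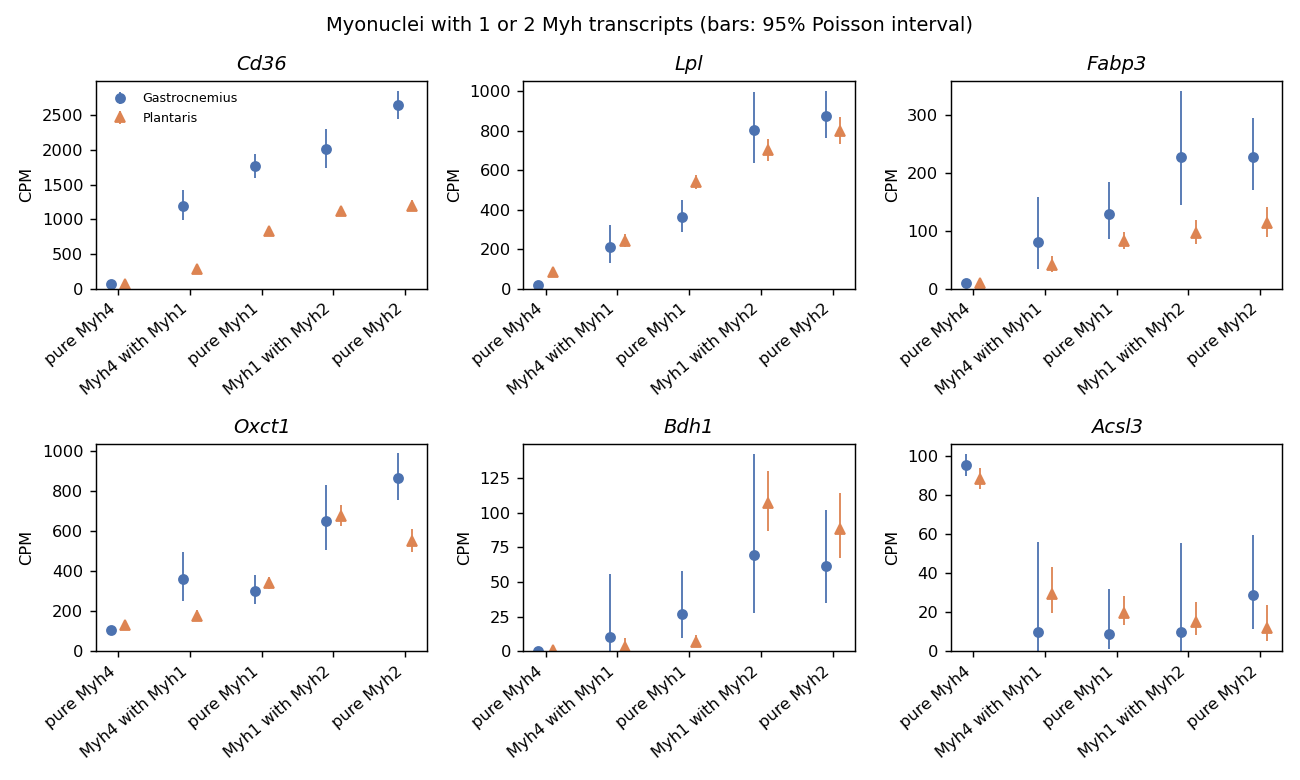
CPM of 6 members in myonuclei with mostly 1 Myh transcript (pure) and in those with 2, for gastrocnemius (blue circles) and plantaris (orange triangles), with 95% Poisson intervals. Cd36, Lpl and Fabp3 climb from left to right, Bdh1 is high in the 2 classes with Myh2, and Acsl3 is high in pure Myh4 nuclei.

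The rest of the pathway was read from a list of 70 further genes, of which 58 were tested. Of these, 29 were higher and 6 lower in Myh2 than in Myh4 nuclei, 22 higher and 4 lower in Myh1 than in Myh4 nuclei, and 6 higher and 3 lower in Myh2 than in Myh1 nuclei. Beside these stand 10.3% and 8.97% of all genes, 6.61% and 4.73%, and 1.12% and 1.47%, called higher and lower in the same order. Receptors and cofactors that control these genes had 8 of 12 higher and 1 lower in both comparisons with Myh4. Ppara, the fatty acid receptor of oxidative tissues, stood at 41.1 and 116 CPM in Myh4, 795 and 1031 in Myh1 and 1575 and 1959 in Myh2 nuclei, with a fitted log2 ratio of 4.58 ± 0.24 (SE, adjusted p = 8.00e-79) for Myh2 over Myh4. The coactivator Ppargc1a had a ratio of 2.50 ± 0.23 (SE, adjusted p = 3.88e-25), and the estrogen-related receptors Esrrb, Esrrg and Esrra had 5.61 ± 0.25 (SE, adjusted p = 1.64e-111), 2.90 ± 0.24 (SE, adjusted p = 1.10e-30) and 1.64 ± 0.21 (SE, adjusted p = 9.49e-14). Nrip1, a corepressor of these receptors, was lower, at -1.82 ± 0.21 (SE, adjusted p = 4.65e-16).

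Among droplet and triglyceride genes, 6 of 10 tested were higher and 1 was lower in Myh2 than in Myh4 nuclei. Dgat2, which completes triglyceride synthesis, had a fitted log2 ratio of 4.45 ± 0.25 (SE, adjusted p = 1.19e-65), and Mgll, which ends triglyceride breakdown, had 3.75 ± 0.22 (SE, adjusted p = 5.25e-61). In acyl-CoA handling and peroxisomes 7 of 13 tested were higher and 1 lower, and the lower gene was Crot, a carnitine transferase of peroxisomes, at -1.17 ± 0.31 (SE, adjusted p = 0.0018). In synthesis and its control, Prkag3, the AMP kinase subunit of glycolytic muscle, was lower at -3.56 ± 0.24 (SE, adjusted p = 5.91e-48), and Acaca, the cytosolic partner of Acacb, was higher at 1.26 ± 0.20 (SE, adjusted p = 7.10e-09). Slc16a1, a carrier of lactate and ketone bodies, was higher at 1.65 ± 0.30 (SE, adjusted p = 4.66e-07). Uptake genes outside the 35 had 2 of 7 tested higher, with the transporter Slc27a1 at 2.19 ± 0.21 (SE, adjusted p = 5.92e-24), and 1 lower. In the fuel switch, 2 of 4 were higher for Myh2 over Myh4. Pdk4, which closes the route of glucose into mitochondria, was lower in Myh2 than in Myh1 nuclei at -0.72 ± 0.21 (SE, adjusted p = 0.0313). It stood at 1419 and 673 CPM in Myh1 and 1316 and 272 CPM in Myh2 nuclei, so the difference lay mainly in plantaris.

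Outside the fibres, levels were described without a test, because the clusters were made from the same nuclei, with 3 members among the 2000 genes used. Myonuclear markers summed to 21623 and 36101 CPM in endothelial nuclei (45 and 84 nuclei) and to 13158 and 14222 CPM in mesenchymal nuclei (1011 and 1518), so myonuclear RNA was present in both. Median depths were 1109 and 1012.5 UMIs in endothelial nuclei and 1389 and 1624 in mesenchymal nuclei. In endothelial nuclei 2 members, Fabp4 and Lipe, stood 2-fold or more above each of the 3 Myh groups in both libraries, while 7.64% of all genes did so. Fabp4 stood at 549 and 385 CPM there, on 34 and 59 UMIs, against 0.992 and 0.569 CPM in Myh4 nuclei. Lipe stood at 129 and 65.3 CPM, on 8 and 10 UMIs. Adipoq, Plin1, Cidec, Lep and Adrb3, markers of adipocytes, were at 0 in these endothelial nuclei. The sixth marker of that list, Pparg, stood at 436 and 319.8 CPM there, on 27 and 49 UMIs.

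Cd36 stood at 1727 and 489 CPM in endothelial nuclei, close to the Myh1 level in gastrocnemius and below both the Myh1 and Myh2 levels in plantaris. Lpl stood at 468 and 222 CPM there. Its anchor on the capillary wall, Gpihbp1, stood at 64.5 and 144 CPM in endothelial nuclei and gave 0 and 1 UMIs in Myh4 nuclei, where the count of 0 allows up to 0.213 CPM. Bdh1, Plin5, Cpt2 and Acads gave 0 UMIs in endothelial nuclei, which allows up to 48.4 CPM in gastrocnemius and 19.6 CPM in plantaris, so low levels were not detectable at this depth.

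Mesenchymal progenitors had 1 member, Cpt1a, at 2-fold or more above the Myh groups, where 14% of all genes did so. It stood at 74.5 and 56.4 CPM against 22.5 and 22 in Myh4 nuclei. The call ended under median-ratio scaling. Cpt1a was at 76.4 and 84 CPM in muscle stem cells and 57.9 and 84.7 in macrophages. Of the 11 beta-oxidation genes, 4 were above the Myh4 level in mesenchymal nuclei of both libraries, 6 were below it in both and 1 differed by library. Acaa2 stood above, at 35.4 and 23.8 CPM, and Hadha below, at 48.4 and 60.2. In the 28 and 13 adipocyte nuclei, Acsl1 stood at 3245 and 1375 CPM, Acacb at 1864 and 1222, Fabp4 at 713 and 397 and Lipe at 391 and 397.

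**Figure D4:**
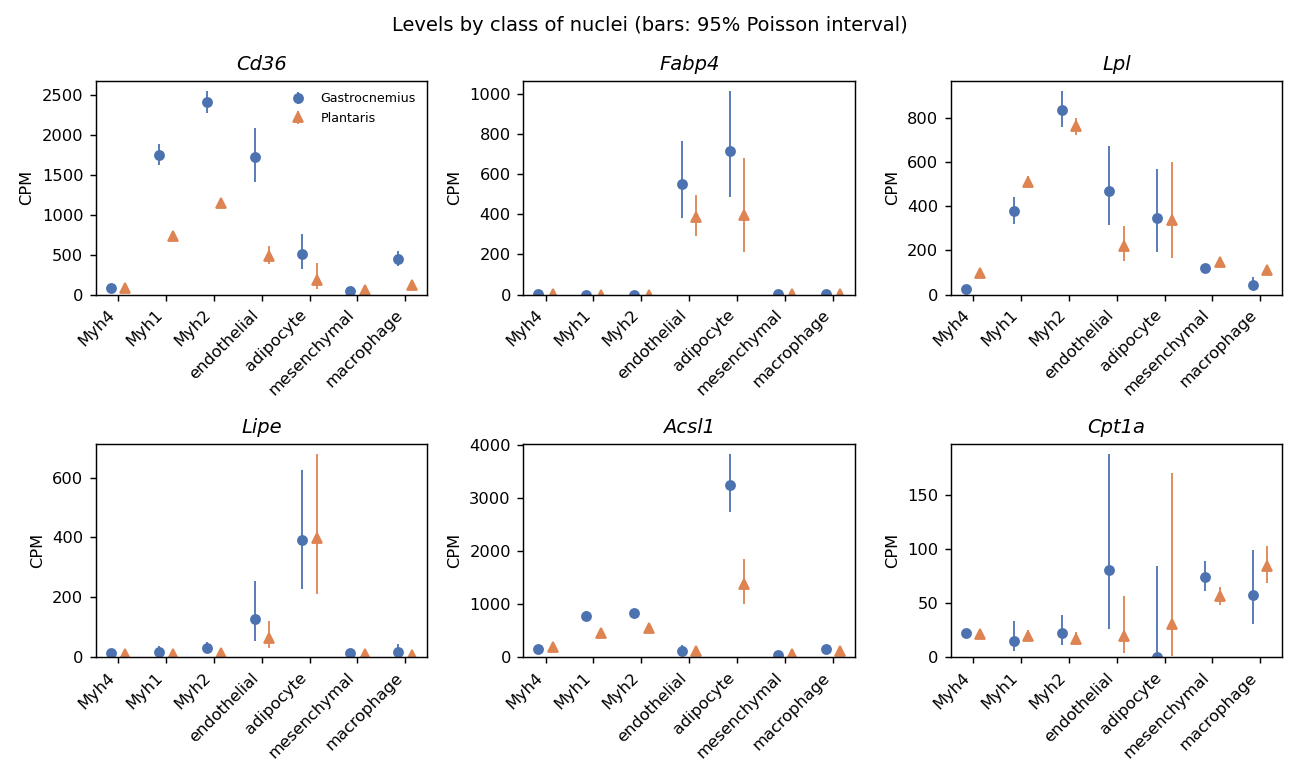
CPM of 6 members in 3 Myh groups and 4 other classes of nuclei, for gastrocnemius (blue circles) and plantaris (orange triangles), with 95% Poisson intervals for counting error. Fabp4 and Lipe are high in adipocyte and endothelial nuclei, and Cd36 is high in Myh1, Myh2 and endothelial nuclei.

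Between the muscles there is 1 library each, so no test was run. Differences are log2 ratios of CPM in plantaris over gastrocnemius with exact 95% intervals for counting error only, over genes with 20 or more UMIs in the pair. Several clusters of myonuclei held mostly 1 library, such as one with 2417 gastrocnemius and 87 plantaris nuclei and another with 119 and 2001, so the libraries stand apart among myonuclei.

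In Myh4 nuclei, 3 of 34 members were 2-fold or more higher in plantaris and 0 in gastrocnemius, against 8.88% and 2.15% of all genes. They were Bdh1, at 2.64 (1.29 to 4.35), Lpl, at 1.96 (1.79 to 2.13), and Acadvl, at 1.07 (0.70 to 1.46). The Lpl ratio corresponds to the levels of 24.8 and 96.2 CPM given above. The intervals of 15 members lay above 0 and those of 3 below it, beside 37% and 12% of all genes. The median ratio of the members was 0.16, beside 0.20 over all genes. Under median-ratio scaling the split was 2 and 1.

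In Myh1 nuclei, 4 of 32 members were 2-fold or more higher in gastrocnemius, against 4.21% of genes, and 1 in plantaris, against 12.9%. The 4 were Acaa2 at -1.28 (-1.89 to -0.62), Cd36 at -1.25 (-1.38 to -1.12), Bdh1 at -1.10 (-2.05 to -0.04) and Slc25a20 at -1.03 (-1.52 to -0.51). The gene higher in plantaris was Etfb, on 3 and 52 UMIs, with an interval that includes 0. The intervals of 2 members lay above 0 and those of 10 below it, beside 9.86% and 7.81% of all genes. The median over the members was -0.34, beside 0.09 over all genes.

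In Myh2 nuclei, 6 of 32 members were 2-fold or more higher in gastrocnemius, against 4.89% of genes, and 0 in plantaris, against 8.76%. Acadl differed at -1.28 (-1.57 to -0.98), Eci2 at -1.12 (-1.78 to -0.44), Fabp3 at -1.11 (-1.44 to -0.77), Cd36 at -1.07 (-1.18 to -0.97) and Lipe at -1.07 (-1.99 to -0.09). Plin5 was the sixth, at -1.03 (-2.10 to 0.11), with an interval that includes 0. The intervals of 16 members lay below 0 and that of 1, Bdh1 at 0.55 (0.02 to 1.12), above it, where 10.9% of all 7245 genes had intervals below 0 and 9.92% above it. The median over the members was -0.53, beside -0.00 over all genes.

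Within Myh2 nuclei the muscles also differed in make-up. The cluster that holds 168 of 174 and 539 of 568 Myh2 nuclei was split again into 2 divisions, a choice made after the data were seen. The division led by Mapk10 and Nr4a3 held 39 and 323 Myh2 nuclei, and the one led by Myl2 and Mamdc2 held 129 and 216. Cd36 differed by -0.90 in the first and -1.01 in the second, Acadl by -1.51 and -1.43, and Fabp3 by -0.79 and -1.11. For these members plantaris was lower within both divisions. The interval of Fabp3 in the first division, on 16 and 119 UMIs, included 0. Eci2 differed by -1.90 and -0.88 and Lipe by -1.84 and -0.82, with intervals that included 0 in the second division. Plin5 had too few UMIs for a ratio in either. Bdh1, higher in plantaris over all Myh2 nuclei, differed by 0.48 (-1.14 to 2.81) in the first division, on 3 and 54 UMIs. In the second division Bdh1 differed by 1.22 (0.65 to 1.83), on 31 and 139 UMIs. What part the make-up has in these differences was not tested. The mean of the CPM of single nuclei, in place of the CPM of summed UMIs, gave 2 members past 2-fold in Myh2 nuclei, beside 6.

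**Figure D5:**
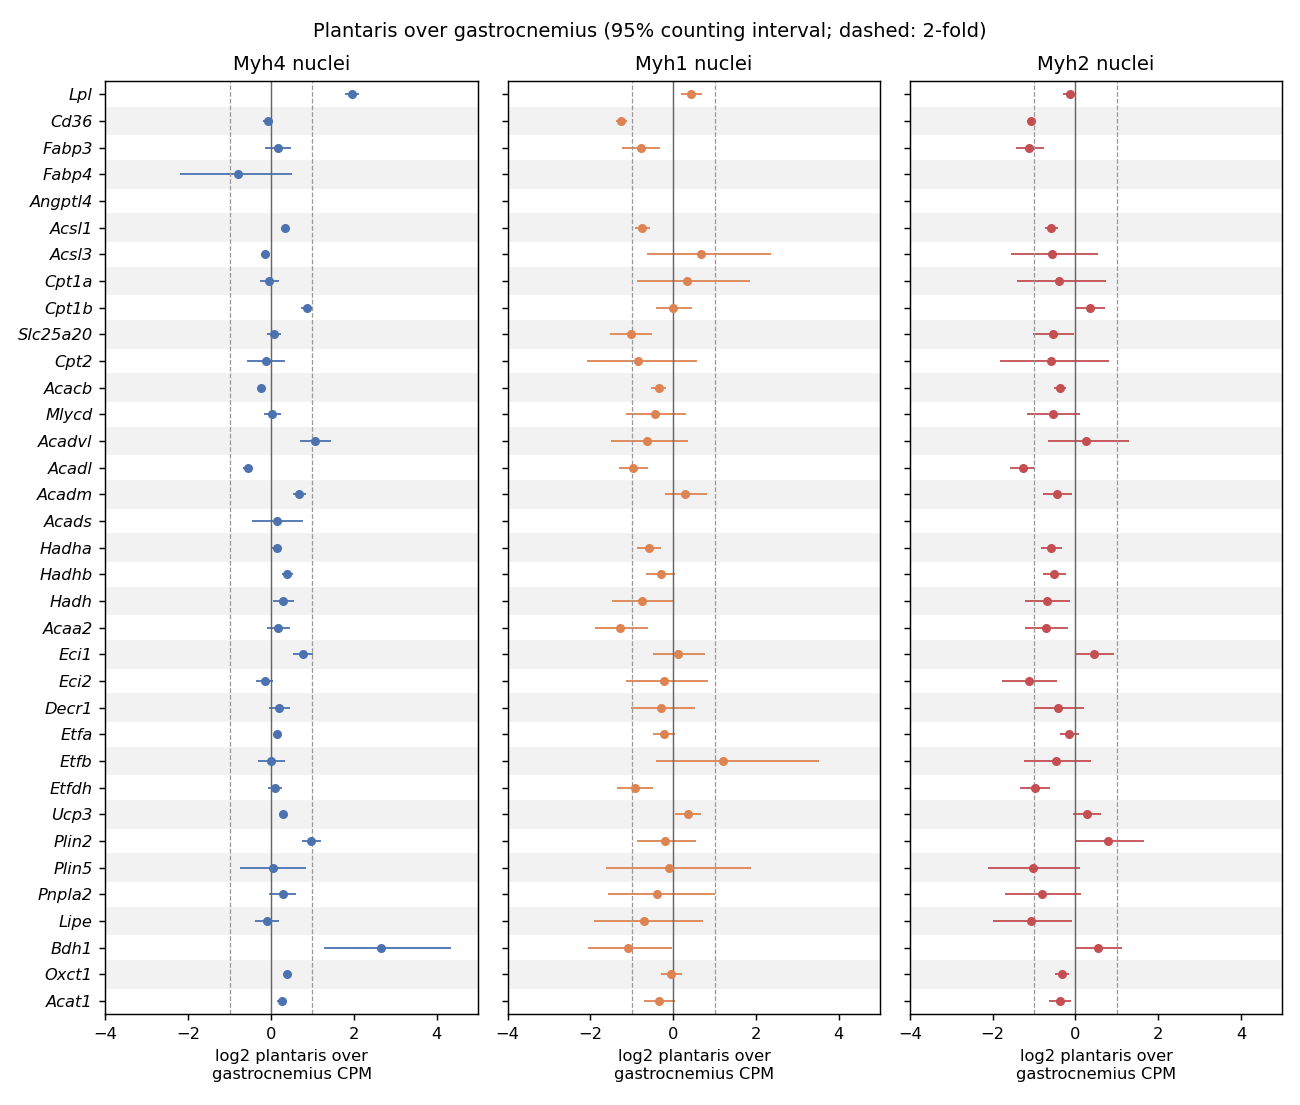
Log2 ratio of CPM in plantaris over gastrocnemius for each member in Myh4, Myh1 and Myh2 nuclei, with 95% counting intervals and dashed lines at 2-fold. In Myh4 nuclei 25 of 34 members lie above 0, with a median of 0.16 beside 0.20 over all genes. In Myh2 nuclei 26 of 32 lie below 0, with a median of -0.53 beside -0.00 over all genes. The share of all genes on either side of 0 was not counted.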

How the data were processed

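The authors deposited UMI counts as whole numbers per gene and nucleus, with a table giving each barcode's library. Cell Ranger 6.0.1 and the build mm10 are named in the submitters' processing notes, and sorting of PI-labelled nuclei in the labels' protocols. For annotation, intron counting and nucleus calling, settings were not given in the sources used here.

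A filter of at least 200 genes and less than 5% mitochondrial UMIs removed 0 gastrocnemius and 6 plantaris nuclei. Scrublet (scanpy 1.11.5) marked 10 and 3 nuclei, which were left out. At 0.136% and 0.0328% of nuclei, less than 0.5%, this calling is treated as failed and doublets are still present. Counts scaled to 10000 per nucleus were log-transformed, and 2000 variable genes (3 of them members), 30 principal components and 15 neighbours gave the graph that leidenalg 0.10.2 partitioned at resolution 1. Clusters were named from marker lists needing 3 markers. Myonuclei with 3 or more Myh UMIs were grouped by the most abundant Myh transcript, leaving out ties.

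UMIs were summed per library and group. CPM is the count per 1000000 UMIs of the group. edgeR 4.0.16 (TMM, quasi-likelihood, library as a block, 30 or more UMIs over 6 sums) tested 12213 genes with Benjamini-Hochberg adjustment. The procedure was run on simulated data drawn from edgeR's own fitted means and spread, so that run is no separate check of the spread between the muscles. Alternatives were DESeq2 1.42.0, no TMM, other count minimums, no block, thinning, stricter Myh groups, and leaving out junction nuclei or the 10% highest doublet scores. Intervals are exact Poisson or conditional binomial at 95%, cover counting error only, and a count of 0 was set to 3 counts in ratios.

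The members and lists were chosen with earlier results of these data known. Examples from the pathway list were picked after their values were seen. Values of some genes of that list are not reported here. Full values are given for members called at a fitted log2 ratio of 1 or more either way, past 2-fold between muscles with an interval leaving out 0, or 2-fold above the Myh groups in another class. Gene positions come from GENCODE M21, which holds 31490 of the 32285 names.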

Additional observations from a re-analysis of the deposited data

Results flagged for a closer look

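For 5 members the plantaris over gastrocnemius ratio had opposite signs in a pair of Myh groups, with counting intervals that left out both 0 and the median of all genes. With 1 library per muscle, none of these differences between groups was tested, and the share of all genes with such opposite signs was not counted. In pairs with Myh4, the difference is the same quantity as the larger ratio within gastrocnemius described above. That ratio was larger in gastrocnemius for 78.6% and 80.2% of all genes called higher in Myh2 and in Myh1 nuclei. Acsl1 had log2 ratios of 0.33 in Myh4 and -0.58 in Myh2 nuclei, a difference of 0.91, and of -0.74 in Myh1 nuclei, a difference of 1.07 from Myh4. Acadm had 0.69 in Myh4 and -0.44 in Myh2 nuclei, a difference of 1.12. Hadhb had 0.39 and -0.51, a difference of 0.91, and Oxct1 had 0.40 and -0.33, a difference of 0.73. Bdh1 had 2.64 in Myh4 and -1.10 in Myh1 nuclei, a difference of 3.75, and 0.55 in Myh2 nuclei, so that Myh1 minus Myh2 was -1.66. Its UMIs numbered 5 and 35 in Myh4, 12 and 42 in Myh1 and 34 and 196 in Myh2 nuclei.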

How the results depend on the processing

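No called value changed sign under the alternatives run, and 53 recomputed counts of members stayed within 1.5 times of the reported ones. Without the library block, edgeR called 21, 16 and 0 members for Myh2 against Myh4, Myh1 against Myh4 and Myh2 against Myh1 nuclei, beside 29, 24 and 3 with the block. The last comparison gave 6 members with library totals alone, beside 350 of all genes. Between muscles in Myh2 nuclei, 2 members were 2-fold apart by the mean of the CPM of each nucleus, beside 6, and under median-ratio scaling 0 members stood above the Myh groups in mesenchymal nuclei, beside 1. Calls over all genes numbered 2352, 1385 and 317 and fell to 1367, 719 and 104 with DESeq2, to 1178, 456 and 11 without the block, and to 1424, 832 and 126 with thinned nuclei. For Myh2 against Myh1 nuclei they fell to 135 with 100 or more UMIs and to 181 with stricter Myh groups. DESeq2 turned the split of that last comparison from 137 higher and 180 lower to 58 and 46. Of the single members' values between Myh groups, 53 calls were lost and 10 gained, and 105 ratios within 1 library lay more than 1 SE from the joint value. Between muscles 9 values moved out of their counting interval. The causes were not tested. No paired analysis was possible because no label ties a gastrocnemius to a plantaris of one animal. The block above is the library.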
